A study of Homo sapiens with 7 samples.

Results

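The genes described here repair broken chromosomes and protect stalled replication forks. The list holds 59 genes, written down by name, and each was read from the brightest transcript cluster that the array's annotation assigns to that gene alone. Of the 59, 53 were measured among 17958 genes in all, and BRCA2, RBBP8, ATRIP, FANCA, FANCD2 and FAN1 were not analysed here. Signals came from 7 Affymetrix Human Gene 1.1 ST arrays, which read whole transcripts through many probes. The RNA was from SKOV3, an established human ovarian carcinoma line that the labels class as serous. The cell line label gives SKOV3 for all 7 samples, although the source names number the line differently for each sample. All samples, controls included, carried a stable lentiviral construct and grew in medium with puromycin. Scramble control has 2 arrays, the CtBP1 knockdown label covers 3 and the CtBP2 knockdown label 2. The series text calls every sample a clone, and the knockdown labels number them. Hairpin sequences are not used here. The labels state that protein loss was checked by western blot. They do not say if each clone was cultured separately, so a p-value here reflects array-to-array spread alone, some of which may be technical.

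A double-strand break can be joined end to end by the Ku-dependent pathway, or it can be trimmed to single strands and copied from the sister chromatid by homologous recombination. The Fanconi anaemia pathway removes crosslinks between the strands and hands the resulting breaks to recombination, while ATR signalling and single-strand binding proteins keep stalled forks intact. Ovarian carcinomas that lose recombination genes such as BRCA1 are known for their sensitivity to platinum and to inhibitors of PARP. CtBP1 and CtBP2 are transcriptional co-repressors, CtBP proteins have been reported at the BRCA1 promoter, and RBBP8, the resection factor also called CtIP, was named for binding to CtBP.

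CTBP2 had log2 signals of 5.70 and 6.14 under scramble against 4.64 and 4.22 under CtBP2 knockdown, with no overlap (log2 difference -1.49 ± 0.21 [-1.71], with the SE of the limma fit and, in square brackets, the difference against scramble control 2 alone, adjusted p = 0.18). CTBP1 gave 5.69 and 6.37 under scramble against 5.11, 6.13 and 6.13 under the CtBP1 knockdown label (log2 difference -0.25 ± 0.39 [-0.59], adjusted p = 0.849). Each of the latter lay below scramble control 2, but only the first lay below scramble control 1. The signals do not separate, so the arrays of that label are called the CtBP1-labelled arrays from here on. Markers of other cell types stayed low: fibroblast markers reached at most 3.32, endothelial markers 2.33 and leukocyte markers 2.31, while the epithelial keratin KRT8 gave 8.35 and 8.95 under scramble. WT1, a marker of serous carcinomas, was low there as well, at 2.20 and 2.21. Of the other epithelial ovarian carcinoma markers looked at, PAX8, KRT18, KRT19 and ERBB2 gave 6.38 or more under scramble. EPCAM gave 5.49 and 4.59 there, MSLN 4.13 and 4.23, and MUC16 3.79 and 4.09. Scramble control 1 stood apart from the rest. Its correlations across genes, which are not independent replicates, were 0.926 to 0.941 with each of the others. Its signals were less spread, with an interquartile range of 2.20 log2 units against 2.85 to 3.15 on the rest, and it was the highest array for 30.2% of all genes as well as the lowest for 32.3%. What part this plays in the values was not tested. Differences from scramble are therefore followed by the same difference against scramble control 2 alone, in words or in square brackets.

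Most of the break repair and fork protection genes had their lowest signal on scramble control 1. It held the lowest of the 7 signals for 40 of the 53 genes (75.5%), where it did so for 32.3% of all genes. Relative to each gene's own mean over the arrays, the median of the 53 genes was -0.56 log2 units on scramble control 1 and 0.13 on scramble control 2. On the CtBP1-labelled arrays it was -0.01, -0.12 and 0.13, and on the CtBP2 knockdown arrays 0.18 and 0.24. In bulk RNA, fewer cells of a kind and less RNA per cell cannot be told apart.

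**Figure D1:**
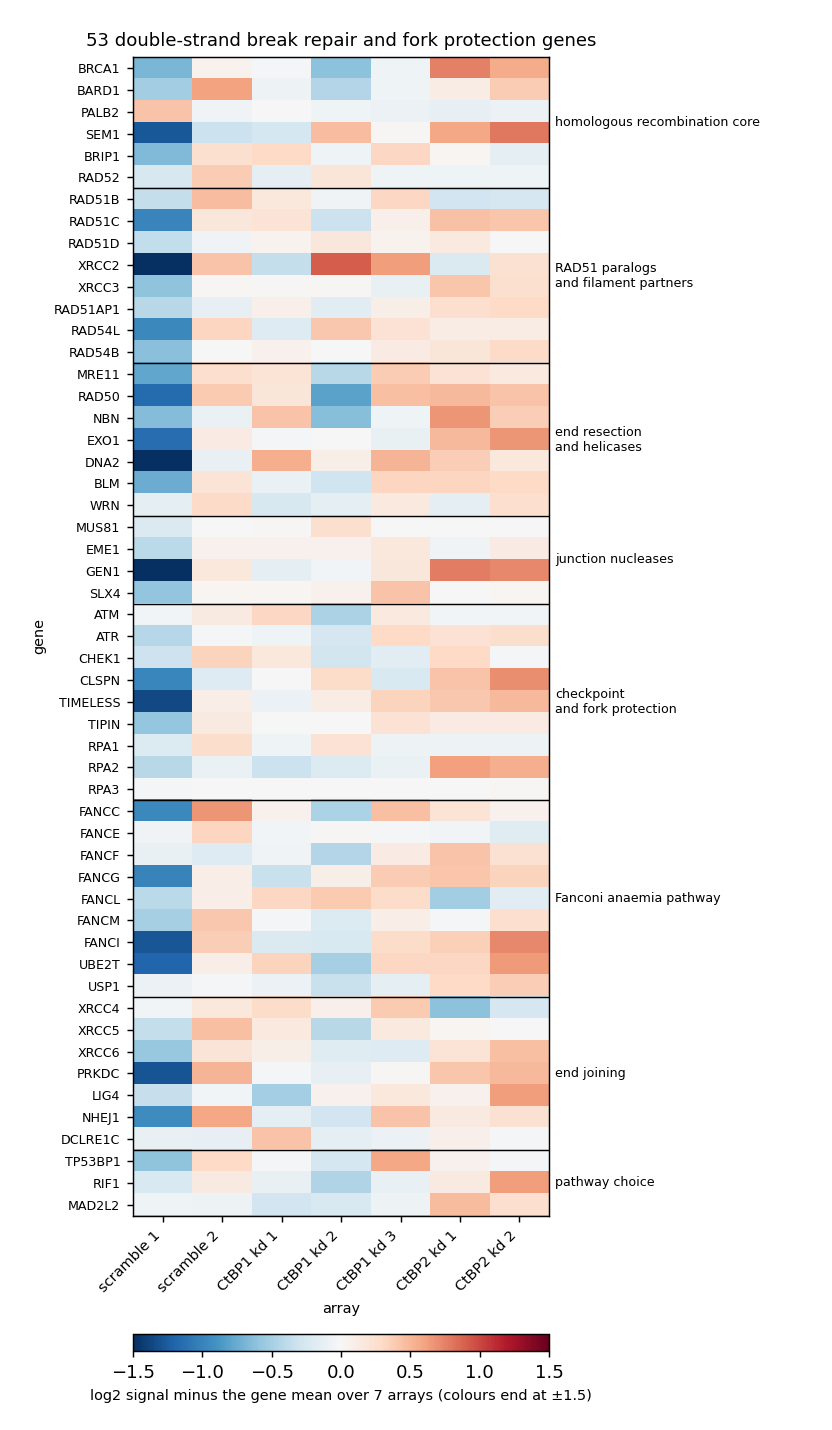
Each row is 1 of the 53 measured genes, grouped by role, and each column is 1 array ("kd", labelled knockdown); colour gives the log2 signal minus that gene's mean over the 7 arrays, blue below and red above, and colours end at ±1.5. Scramble control 1 is the bluest column, with the lowest signal for 40 genes, and red cells such as GEN1, BRCA1 and RPA2 mark both CtBP2 knockdown columns.

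Genes of dividing cells were low on the same array. On scramble control 1 the median of 18 measured G2/M genes was -1.58 relative to the genes' means, that of 19 S phase and replication genes was -0.83, and that of 55 further damage signalling and repair genes was -0.40. The median over all genes was -0.01 there. On the CtBP2 knockdown arrays the S phase list stood at 0.47 and 0.42 and the G2/M list at 0.39 and 0.43, each above the 53 genes. Scramble control 2 had the G2/M list at 0.56, above both CtBP2 knockdown arrays, and the S phase list at 0.08, below both. What part these differences play in the repair genes' values was not tested.

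**Figure D2:**
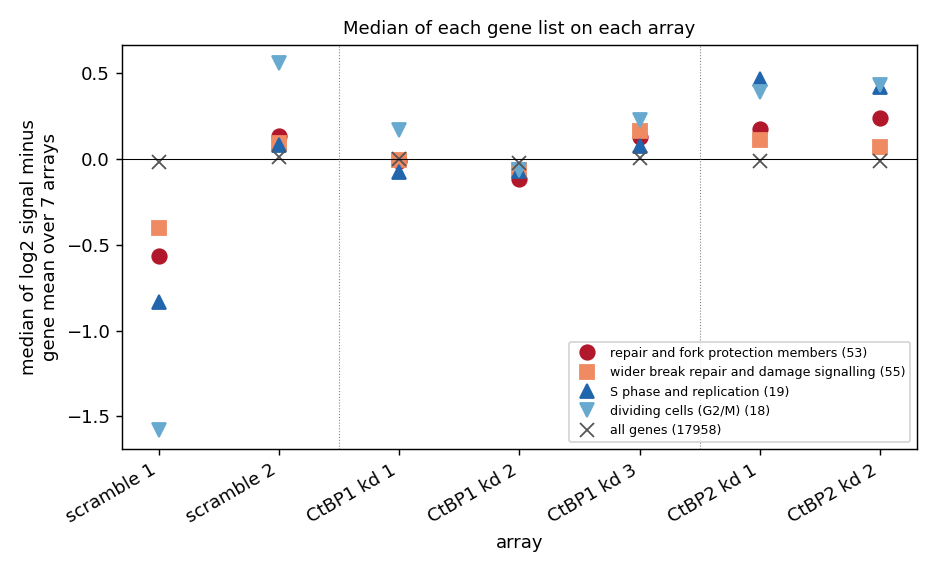
The vertical axis is the median, over the genes of a list, of log2 signal minus the gene's mean over 7 arrays; the horizontal axis gives the 7 arrays, and numbers in brackets count measured genes. On scramble control 1 the 53 repair and fork protection genes lie at -0.56, between the further repair genes (-0.40) and the S phase genes (-0.83), while all genes lie at -0.01.

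The controls disagreed on most of these genes. Scramble control 1 was below scramble control 2 for 49 of the 53 (92.5%, against 51.2% of all genes) and by over 1 log2 unit for 16 (30.2%, against 13.0%). The median within-group SD of the 53 genes was 0.51 on the scramble arrays, 0.21 on the CtBP1-labelled arrays and 0.07 on the CtBP2 knockdown arrays. Over all genes it was 0.27, 0.16 and 0.08 on the same groups. The widest range over the arrays belonged to XRCC2, a paralog of the strand-exchange recombinase. Its signals were 4.12 and 6.17 on the scramble arrays, 5.38, 6.65 and 6.36 on the CtBP1-labelled arrays and 5.53 and 5.97 on the CtBP2 knockdown arrays, so the spread among the CtBP1-labelled arrays exceeded that between the group means. For 9 of the 53 genes (17.0%, against 19.5% of all genes) a group held identical values on 2 or more arrays, which can understate the spread: RAD52, XRCC3, RAD54L, MUS81, EME1, ATM, RPA1, RPA3 and RIF1.

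The CtBP1-labelled arrays were compared with scramble by label only. CTBP1 RNA signals did not separate these groups, so from the arrays alone the comparison cannot show which genes depend on CtBP1. DNA2, SEM1, FANCL and RAD51D lay above both controls on all 3 arrays, which makes 4 of the 53 (7.55%, against 6.76% of all genes). No gene of the list lay below both on all 3 (7.59% of all genes). None passed the test: limma called 0 of the 53 at an adjusted p under 0.05, as it did for 0 of 17958 genes (0%). An unadjusted p under 0.05 was seen for 3 of the 53 on the higher side, where 2.87% of all genes had one, and for 0 on the lower side, where 1.92% did (4.79% in both directions). The fitted difference was above 0 for 41 of the 53 (49.1% of all genes), with a median of 0.24 against 0.00 for all genes.

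That direction rested on scramble control 1. Without it the median was -0.12, and the fitted difference was above 0 for 17 of the 53 genes (32.1%, against 44.9% of all genes). The unadjusted p was then under 0.05 for 0 on the higher side (2.26% of all genes) and 3 on the lower side (5.42% of all genes), which were BARD1 (-0.80), FANCE (-0.34) and PRKDC (-0.54). Without scramble control 2 the median was 0.50 and 16 of the 53 passed the threshold (30.2%, against 18.2% of all genes), among them DNA2, SEM1, FANCL, CLSPN, RAD54B and TIMELESS. That fit has a single control array, assumed to vary as the knockdown groups do. For 33 of the 53 (62.3%, against 27.3% of all genes) the mean of the CtBP1-labelled arrays lay above scramble control 1 and below scramble control 2.

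DNA2, a nuclease and helicase that lengthens resected ends, had signals of 2.53 and 3.98 for scramble, against 4.64, 4.18 and 4.60 on the CtBP1-labelled arrays. Its log2 difference was 1.22 ± 0.42 (adjusted p = 0.734), and it was 0.49 against scramble control 2 alone. SEM1, a small acidic partner of BRCA2 that is also a proteasome subunit, gave 4.48 and 5.42 for scramble and 5.48, 6.21 and 5.76 for the CtBP1-labelled arrays, a difference of 0.87 ± 0.34, or 0.40 against scramble control 2 alone. FANCL, the ubiquitin ligase of the Fanconi anaemia pathway, gave 4.53 and 5.03 for scramble and 5.24, 5.32 and 5.21 for the CtBP1-labelled arrays, a difference of 0.48 ± 0.19, or 0.23 against scramble control 2 alone. These 3 were the genes with an unadjusted p under 0.05, and each kept its sign against either control.

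By role, the median difference of the CtBP1-labelled arrays from scramble was 0.34 for the recombinase paralogs and filament partners, 0.32 for resection and 0.36 for junction nucleases. It was 0.17 for the Fanconi anaemia pathway, 0.18 for end joining, 0.05 for checkpoint and fork protection, 0.01 for the recombination core and -0.13 for the genes of pathway choice. All 8 genes of the paralog group and all 4 junction nucleases had a fitted difference above 0. Without scramble control 1, 3 of the 8 and 3 of the 4 did. The medians were then -0.04 for the paralog group, -0.19 for resection, 0.06 for junction nucleases, -0.16 for the Fanconi anaemia pathway, -0.29 for end joining, -0.07 for checkpoint and fork protection, -0.18 for the core and -0.20 for pathway choice.

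CtBP2 knockdown was compared with scramble to ask which of these genes differ between arrays of these labels. With 2 arrays in each group and controls that disagree, the comparison cannot show which genes depend on CtBP2. RPA2, SEM1, CLSPN, BRCA1, EXO1 and 21 more lay above both controls on both CtBP2 knockdown arrays, and XRCC4 and PALB2 lay below both. That makes 26 of the 53 higher without overlap (49.1%, where 19.3% of all genes were) and 2 lower (21.7% of all genes). Of the other lists, 17 of 19 S phase genes, 6 of 18 G2/M genes and 17 of 55 further repair genes were higher without overlap. Lower without overlap were 0, 0 and 3. Limma called 0 of the 53 at an adjusted p under 0.05, and 1 of 17958 genes (0.00557%). An unadjusted p under 0.05 was seen for 11 on the higher side (7.19% of all genes) and 1, XRCC4, on the lower side (2.98% of all genes), which is 10.2% of all genes in both directions. The fitted difference was above 0 for 43 of the 53 (47.2% of all genes). The median difference was 0.43, against -0.02 for all genes.

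Here too the values differed between the controls. Without scramble control 1 the median was 0.065, the fitted difference was above 0 for 28 of the 53 (52.8%, against 42.6% of all genes), and the unadjusted p was under 0.05 for 6 on the higher side (11.3%, against 5.07% of all genes) and 4 on the lower side (7.55%, against 5.30%). Those lower were RAD51B (-0.74), RAD52 (-0.44), FANCE (-0.44) and XRCC4 (-0.60). Without scramble control 2 the median was 0.69 and 20 of the 53 passed the threshold (37.7%, against 22.0% of all genes), among them RPA2, SEM1, CLSPN, RAD51AP1, BRCA1 and EXO1. The mean of the CtBP2 knockdown arrays lay above both controls for 28 of the 53 (52.8%, against 27.3% of all genes).

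The CtBP2 knockdown arrays were also set against all others, with and without scramble control 1. Both were above the other 5 arrays for 16 of the 53 genes (30.2%, against 10.2% of all genes), and for 16 without scramble control 1 (11.6% of all genes). Both were below the other 5 for 1 gene, XRCC4 (1.89%, against 9.08% of all genes), and for 3 without scramble control 1, with FANCL and RAD51B added (12.9% of all genes). The 16 were BRCA1, SEM1, RAD51C, XRCC3, RAD51AP1, RAD54B, EXO1, GEN1, CLSPN, TIMELESS, RPA2, FANCF, USP1, XRCC6, RIF1 and MAD2L2. For XRCC6 (7.613 against 7.608) and RIF1 (6.259 against 6.253) CtBP2 knockdown array 1 barely exceeded scramble control 2. FANCF was dim, with a mean of 2.55 over the 7 arrays. The order of the arrays was looked for after the values were seen, and it carries no test.

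**Figure D3:**
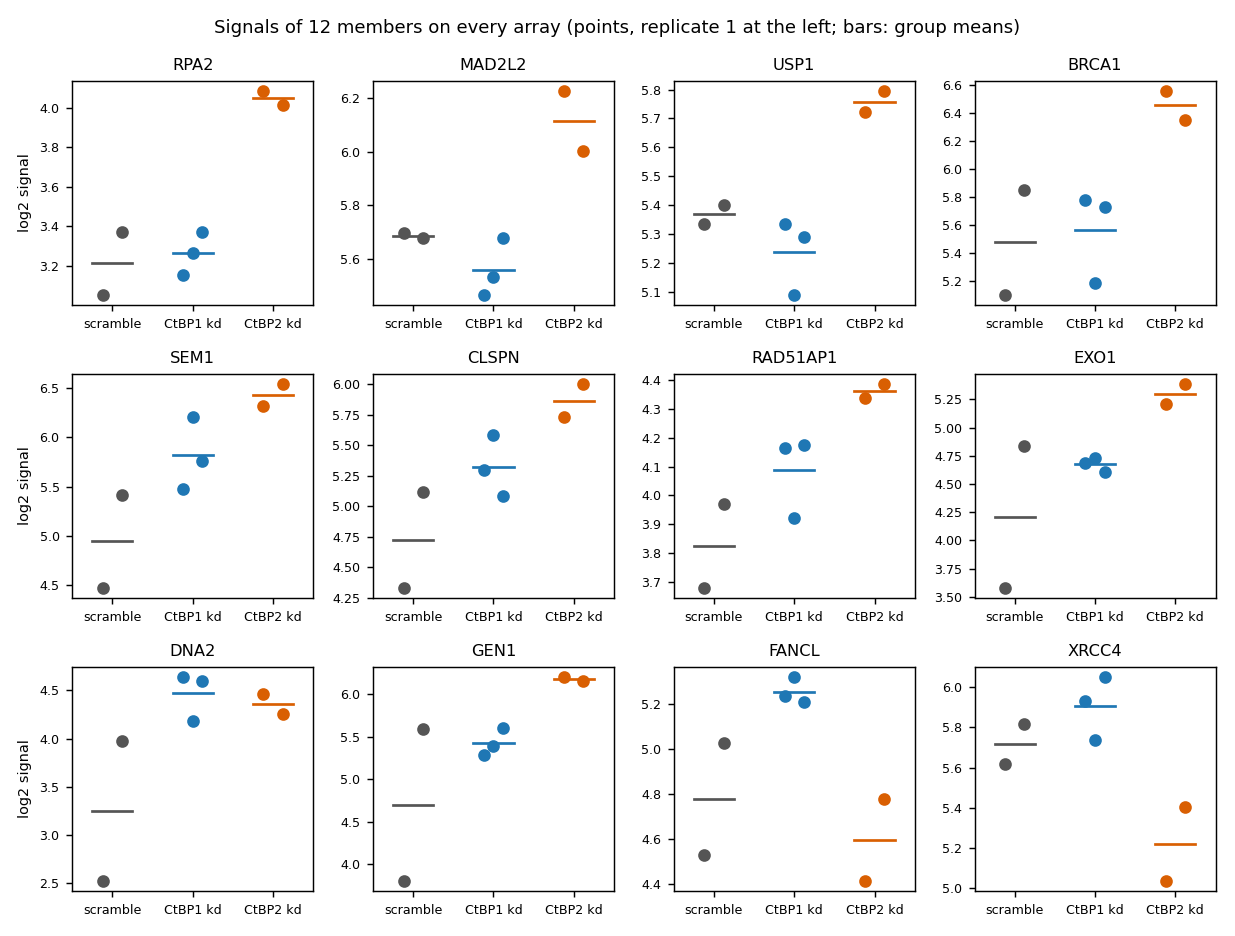
Points are log2 signals of 12 genes on each array, replicate 1 at the left of each group, and bars are group means; the vertical axes differ and do not start at 0. RPA2, MAD2L2, USP1, BRCA1, SEM1, CLSPN, RAD51AP1, EXO1 and GEN1 have both CtBP2 knockdown points above all others, XRCC4 has them below, FANCL has them below the CtBP1-labelled arrays, and DNA2 has them within the range of those arrays.

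By role, the median difference of CtBP2 knockdown from scramble ran from 0.17 for the recombination core to 0.84 for resection. Without scramble control 1 the range was from -0.18 for the core to 0.25 for pathway choice, with resection at 0.11. The core genes of homologous recombination differed among themselves. BRCA1, the ubiquitin ligase that steers breaks into recombination, had signals of 5.10 and 5.85 on the scramble arrays, 5.78, 5.18 and 5.73 on the CtBP1-labelled arrays and 6.55 and 6.35 on the CtBP2 knockdown arrays. Both CtBP2 knockdown signals stood above the other 5. The log2 difference from scramble was 0.98 ± 0.31, or 1.97-fold (adjusted p = 0.422), and 0.60 against scramble control 2 alone. For the CtBP1-labelled arrays it was 0.09 ± 0.29, and the sign turned to -0.29 without scramble control 1, to -0.02 without CtBP1-labelled array 1 and to -0.050 when quantile normalization was repeated. BARD1, the partner that BRCA1 needs for its ligase activity, gave 4.66 and 5.79 for scramble, 5.10, 4.74 and 5.11 for the CtBP1-labelled arrays and 5.28 and 5.57 for CtBP2 knockdown, with scramble control 2 as the highest array. So the partners differed in which array was highest.

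SEM1 showed the widest steps of this group. Its CtBP2 knockdown signals of 6.32 and 6.54 lay above all others, with a difference from scramble of 1.48 ± 0.37 (2.79-fold, adjusted p = 0.351) and 1.01 against scramble control 2 alone. PALB2, which bridges BRCA1 and BRCA2, was the only gene of the 53 highest on scramble control 1, at 5.67 and 5.19 on the controls, 5.25, 5.18 and 5.15 on the CtBP1-labelled arrays and 5.11 and 5.15 on the CtBP2 knockdown arrays. BRIP1, a helicase that binds BRCA1, differed by 0.39 ± 0.29 [-0.07] and 0.15 ± 0.31 [-0.31] from scramble on the CtBP1-labelled and the CtBP2 knockdown arrays, which share their controls. RAD52, which anneals single strands, gave 3.47 and 4.09 on the scramble arrays, 3.57, 3.90 and 3.65 on the CtBP1-labelled arrays and 3.65 and 3.65 on the CtBP2 knockdown arrays.

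All 8 recombinase paralogs and filament partners were lowest on scramble control 1. RAD51AP1, which stimulates strand invasion, had signals of 3.68 and 3.97 on the scramble arrays, 4.17, 3.92 and 4.18 on the CtBP1-labelled arrays and 4.34 and 4.39 on the CtBP2 knockdown arrays. Its difference for CtBP2 knockdown was 0.54 ± 0.16 (adjusted p = 0.396), or 0.39 against scramble control 2 alone. RAD51C, a paralog found in both paralog complexes, gave 4.79 and 5.95 for scramble, 5.99, 5.46 and 5.86 for the CtBP1-labelled arrays and 6.22 and 6.20 for CtBP2 knockdown, with a difference of 0.84 ± 0.39. The CtBP2 knockdown signals of both genes were the highest of the 7, though RAD51C exceeded scramble control 2 by only 0.26.

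Other paralogs split. RAD54B, a translocase that remodels the filament, gave 4.55 and 5.17 for scramble, 5.24, 5.17 and 5.31 for the CtBP1-labelled arrays and 5.36 and 5.46 for CtBP2 knockdown, so scramble control 1 was low and the rest lay close together. Its differences from scramble were 0.38 ± 0.20 [0.07] for the CtBP1-labelled arrays and 0.55 ± 0.21 [0.24] for CtBP2 knockdown. XRCC3 differed by 0.62 ± 0.22 [0.31] for CtBP2 knockdown, while RAD51B lay below the controls' mean at -0.32 ± 0.28 [-0.74]. RAD51D gave 2.82 and 3.14 on the scramble arrays, 3.24, 3.36 and 3.25 on the CtBP1-labelled arrays and 3.33 and 3.19 on the CtBP2 knockdown arrays, so both knockdowns lay above both controls by small steps (0.31 ± 0.14 [0.15] and 0.28 ± 0.15 [0.12]). RAD54L, the other translocase, differed by 0.47 ± 0.39 [-0.17] and 0.43 ± 0.42 [-0.21], with the control signals at 2.93 and 4.22.

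Over the 7 resection genes the median difference for CtBP2 knockdown was 0.84, or 0.11 without scramble control 1, and 1 of them had an unadjusted p under 0.05. That gene was EXO1, the exonuclease of long-range resection, with signals of 3.58 and 4.84 on the scramble arrays, 4.69, 4.73 and 4.61 on the CtBP1-labelled arrays and 5.20 and 5.38 on the CtBP2 knockdown arrays. The difference was 1.08 ± 0.38 (2.12-fold, adjusted p = 0.447), and 0.45 against scramble control 2 alone. DNA2 gave 4.47 and 4.25 on the CtBP2 knockdown arrays, within the range of the CtBP1-labelled arrays, and differed from scramble by 1.11 ± 0.46 [0.38].

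The end-sensing complex of MRE11, RAD50 and NBN was uneven between controls, and its genes were lowest of their group on CtBP1-labelled array 2. RAD50 had signals of 5.20 and 6.75 on the scramble arrays, 6.54, 5.56 and 6.81 on the CtBP1-labelled arrays and 6.85 and 6.79 on the CtBP2 knockdown arrays. MRE11 gave 3.17 and 4.21 for scramble, 4.16, 3.54 and 4.34 for the CtBP1-labelled arrays and 4.17 and 4.11 for CtBP2 knockdown. NBN differed by 0.89 ± 0.37 for CtBP2 knockdown, and by 0.62 against scramble control 2 alone. Of the RecQ helicases, BLM differed by 0.58 ± 0.35 [0.11] and WRN by -0.02 ± 0.23 [-0.24].

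In the group of 4 junction nuclease genes, GEN1, a resolvase of four-way junctions, stood out. Its signals were 3.80 and 5.59 on the scramble arrays, 5.29, 5.39 and 5.60 on the CtBP1-labelled arrays and 6.20 and 6.16 on the CtBP2 knockdown arrays, the highest of the 7. The difference for CtBP2 knockdown was 1.48 ± 0.54 (adjusted p = 0.451), and it was 2.38 and 0.58 against scramble controls 1 and 2 alone. SLX4, a nuclease scaffold, gave 3.05 and 3.68 on the scramble arrays, 3.68, 3.70 and 4.07 on the CtBP1-labelled arrays and 3.65 and 3.68 on the CtBP2 knockdown arrays. MUS81 and EME1, which form a nuclease together, differed by 0.10 ± 0.15 [0.00] and 0.20 ± 0.18 [-0.03] for CtBP2 knockdown.

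RPA2, a subunit of the protein that coats single-stranded DNA, had the smallest p of the 53 for CtBP2 knockdown. It gave 3.05 and 3.37 on the scramble arrays, 3.15, 3.27 and 3.37 on the CtBP1-labelled arrays and 4.08 and 4.01 on the CtBP2 knockdown arrays. The other 5 arrays lay at 3.37 or lower. The difference from scramble was 0.84 ± 0.16 (1.79-fold, adjusted p = 0.245), and 0.68 against scramble control 2 alone. Its partner subunits showed no such step: RPA1 differed by -0.10 ± 0.20 [-0.34], and RPA3 by 0.02 ± 0.11 [0.00] with all 7 signals between 3.38 and 3.42. The arrays' medians over all genes ran from 3.18 to 3.29, close to RPA3 and to RPA2 on the other 5 arrays. A step in RPA3 may go unseen at that level.

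CLSPN, the mediator that lets ATR switch on CHEK1, gave 4.33 and 5.12 on the scramble arrays, 5.30, 5.59 and 5.08 on the CtBP1-labelled arrays and 5.73 and 6.0 on the CtBP2 knockdown arrays. Its difference was 1.14 ± 0.30 for CtBP2 knockdown (adjusted p = 0.361) and 0.60 ± 0.27 for the CtBP1-labelled arrays, or 0.75 and 0.20 against scramble control 2 alone. The effector kinase CHEK1 showed no such order, with 6.15 and 6.79 on the scramble arrays, 6.62, 6.18 and 6.29 on the CtBP1-labelled arrays and 6.75 and 6.44 on the CtBP2 knockdown arrays. TIMELESS, of the fork protection complex, gave 3.36 and 4.81 for scramble, 4.62, 4.82 and 5.05 for the CtBP1-labelled arrays and 5.12 and 5.19 for CtBP2 knockdown. Its difference for the CtBP1-labelled arrays was 0.75 ± 0.41, but 0.02 against scramble control 2 alone. TIPIN, its partner, differed by 0.34 ± 0.24 [-0.01] for CtBP2 knockdown. The kinases ATM and ATR differed by -0.09 ± 0.27 [-0.18] and 0.47 ± 0.22 [0.27] for CtBP2 knockdown.

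In the Fanconi anaemia pathway 9 of 12 genes were measured. USP1, which removes ubiquitin from the pathway's central complex, gave 5.33 and 5.40 on the scramble arrays, 5.33, 5.09 and 5.29 on the CtBP1-labelled arrays and 5.72 and 5.79 on the CtBP2 knockdown arrays. Its difference of 0.39 ± 0.13 for CtBP2 knockdown (adjusted p = 0.438) was 0.36 against scramble control 2 alone and 0.15 with repeated quantile normalization. FANCI, a subunit of that complex, and UBE2T, the conjugating enzyme that acts on it, differed by 0.99 ± 0.53 and 1.01 ± 0.48, but by 0.16 and 0.37 against scramble control 2 alone. FANCI had signals of 5.28 and 6.93 on the scramble arrays, 6.34, 6.33 and 6.84 on the CtBP1-labelled arrays and 6.91 and 7.28 on the CtBP2 knockdown arrays.

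The ligase FANCL lay the other way from USP1 between the knockdowns, with 4.41 and 4.78 on the CtBP2 knockdown arrays, below all 3 CtBP1-labelled arrays and around scramble control 1. FANCF, of the core complex, gave 2.44 and 2.35 for scramble, 2.5, 2.12 and 2.68 for the CtBP1-labelled arrays and 2.98 and 2.78 for CtBP2 knockdown, highest on both CtBP2 knockdown arrays, and differed by 0.48 ± 0.21 [0.53]. Among the other core complex genes, FANCG differed by 0.82 ± 0.40 [0.27], FANCC by 0.29 ± 0.55 [-0.52] and FANCE by -0.25 ± 0.16 [-0.44] for CtBP2 knockdown. FANCM, a translocase that recruits the core, gave 1.84 and 2.75 on the scramble arrays, 2.31, 2.13 and 2.44 on the CtBP1-labelled arrays and 2.31 and 2.58 on the CtBP2 knockdown arrays, all within the controls' range.

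End joining held the clearest lower gene. XRCC4, the scaffold of DNA ligase IV, gave 5.62 and 5.82 on the scramble arrays, 5.93, 5.74 and 6.05 on the CtBP1-labelled arrays and 5.04 and 5.40 on the CtBP2 knockdown arrays, the lowest of the 7. It differed by -0.50 ± 0.18 for CtBP2 knockdown (adjusted p = 0.464), and by -0.60 against scramble control 2 alone. The ligase itself, LIG4, was not low there: its signals were 2.86 and 3.16 for scramble, 2.70, 3.27 and 3.36 for the CtBP1-labelled arrays and 3.27 and 3.83 for CtBP2 knockdown.

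The fitted differences of the Ku subunits were unequal, and the contrast between the subunits was not tested. XRCC6 had signals of 6.85 and 7.61 on the scramble arrays, 7.50, 7.22 and 7.22 on the CtBP1-labelled arrays and 7.61 and 7.87 on the CtBP2 knockdown arrays, a difference of 0.51 ± 0.27 [0.13] for CtBP2 knockdown. XRCC5 differed by -0.04 ± 0.32 [-0.44]. PRKDC, the kinase that Ku recruits, differed by 0.85 ± 0.53 with the controls 5.63 and 7.43, and by -0.05 against scramble control 2 alone. NHEJ1, which aligns the ends with XRCC4, and DCLRE1C, the nuclease Artemis, differed by 0.36 ± 0.50 [-0.40] and 0.15 ± 0.21 [0.16].

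The factors that shield ends from resection were measured for 3 genes. MAD2L2, a subunit of shieldin and of DNA polymerase zeta, gave 5.70 and 5.68 on the scramble arrays, 5.47, 5.53 and 5.68 on the CtBP1-labelled arrays and 6.23 and 6.0 on the CtBP2 knockdown arrays. Its difference of 0.43 ± 0.14 for CtBP2 knockdown (adjusted p = 0.427) was 0.44 against scramble control 2 alone and 0.21 with repeated quantile normalization. RIF1, which TP53BP1 recruits to breaks, gave 5.89 and 6.25 for scramble, 6.01, 5.67 and 6.01 for the CtBP1-labelled arrays and 6.26 and 6.75 for CtBP2 knockdown. TP53BP1 itself gave 4.59 and 5.48 for scramble, 5.15, 4.92 and 5.76 for the CtBP1-labelled arrays and 5.25 and 5.15 for CtBP2 knockdown, with CtBP1-labelled array 3 as the highest.

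The direct comparison of CtBP2 knockdown with the CtBP1-labelled arrays asks where arrays of these labels differ. The control arrays enter it only through the shared estimate of spread. RPA2, MAD2L2, USP1, BRCA1, RIF1 and FANCF were higher on both CtBP2 knockdown arrays, and XRCC4 and FANCL were lower. Limma called 0 of the 53 genes and 0 of 17958 (0%) at an adjusted p under 0.05. The unadjusted p was under 0.05 for 5 on the higher side (5.31% of all genes) and 2 on the lower side (2.46% of all genes), or 7.77% of all genes in both directions. The fitted difference was above 0 for 35 of the 53 (46.8% of all genes). Signals did not overlap for 19 on the higher side (35.8%, against 15.8% of all genes) and 3 on the lower side (5.66%, against 16.2%). The median difference was 0.18, against -0.01 for all genes, and it lay between 0.12 and 0.31 without each array in turn. It was larger for the S phase list (0.49) and the G2/M list (0.32). Signals did not overlap on the higher side for 12 of 19 S phase genes and 11 of 18 G2/M genes. On the lower side this held for 1 and 2.

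The largest of these differences belonged to BRCA1, at 0.89 ± 0.29 (1.85-fold, adjusted p = 0.511). RPA2 differed by 0.79 ± 0.14 (1.72-fold, adjusted p = 0.256), RIF1 by 0.60 ± 0.21 (0.36 without CtBP2 knockdown array 2), MAD2L2 by 0.56 ± 0.13, USP1 by 0.52 ± 0.12 and FANCF by 0.45 ± 0.19 (0.29 without CtBP1-labelled array 2). XRCC4 differed by -0.69 ± 0.17 (1.61-fold lower, adjusted p = 0.367) and FANCL by -0.66 ± 0.19 (1.58-fold lower, adjusted p = 0.465). With the 5 knockdown arrays alone, the unadjusted p was under 0.05 for 14 of the 53 on the higher side (26.4%, against 9.28% of all genes) and 3 on the lower side (5.66%, against 4.93%), while still 0 passed the threshold. With limma's array weights, which gave each scramble array 0.27 and each CtBP2 knockdown array 2.66, RPA2 passed at an adjusted p of 0.0322, as 1 of 272 genes called. Over the alternatives tried, its adjusted p ranged from 0.0322 to 1.

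**Figure D4:**
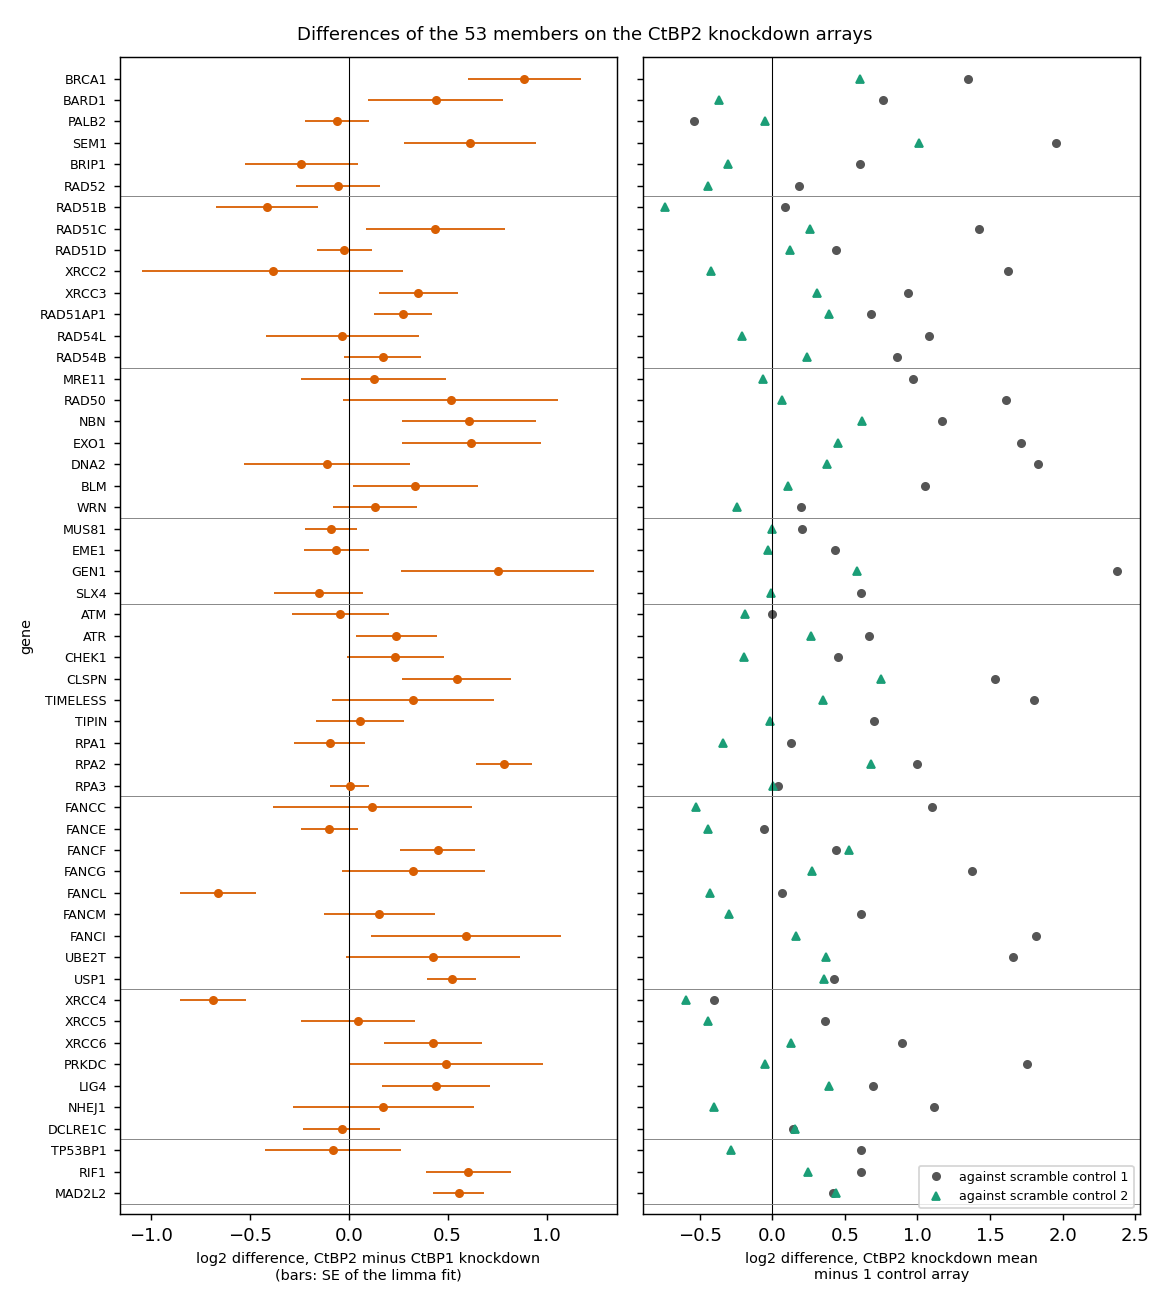
At the left, points are log2 differences of the 53 genes between CtBP2 knockdown and the CtBP1-labelled arrays, with bars for the SE of the limma fit; at the right, points are the CtBP2 knockdown mean minus scramble control 1 (circles) or scramble control 2 (triangles). Grey lines divide the role groups. Circles lie to the right of triangles for 49 genes, and MAD2L2 and DCLRE1C have both nearly on top of each other.

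The 53 genes lie on many chromosomes, by RefSeq gene order on GRCh38.p14. Chromosome 1 holds 7 of them, and 5 of the 16 that were highest on both CtBP2 knockdown arrays, which are RPA2, MAD2L2, USP1, CLSPN and EXO1. The share of all chromosome 1 genes with that order was not counted. Over up to 25 measured genes on each side, the neighbours' median difference between CtBP2 knockdown and the CtBP1-labelled arrays lay between -0.04 and 0.10 for the 7 genes on chromosome 1, and between -0.10 and 0.12 for all 53. For CtBP2 knockdown against both controls it ran from -0.07 (USP1) to 0.10 (RAD54L) on chromosome 1. Among all 53 it ran from -0.18 (XRCC4) to 0.40 (DCLRE1C).

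Further genes of break signalling and repair, written down as a list of 59 of which 55 were measured, were compared in the same way. The test called 0 of them in either direction in each of the 3 comparisons, and an unadjusted p under 0.05 was seen for 0 on the CtBP1-labelled arrays (4.79% of all genes). For CtBP2 knockdown it was seen for 5 higher (7.19% of all genes) and 0 lower (2.98%), and between the knockdowns for 3 higher (5.31%) and 1 lower (2.46%). Their median difference was 0.13 and 0.28 from scramble, and -0.09 and 0.02 without scramble control 1. The histone variant gene H2AX, whose product is phosphorylated around breaks, gave 4.42 and 6.01 on the scramble arrays, 6.12, 6.01 and 6.50 on the CtBP1-labelled arrays and 6.46 and 6.10 on the CtBP2 knockdown arrays. POLQ, the polymerase of microhomology-mediated joining, differed by 0.75 ± 0.36 [0.14] and REV3L, the catalytic subunit of polymerase zeta, by 0.57 ± 0.28 [0.23] on the CtBP1-labelled arrays. NSMCE1 and SMC5, of the SMC5/6 complex, differed by 1.28 ± 0.37 [0.72] and 0.31 ± 0.13 [0.23] for CtBP2 knockdown, and ABRAXAS1, a scaffold of a BRCA1 complex, by 0.41 ± 0.16 [0.30]. NSMCE1 gave 4.33 and 5.46 on the scramble arrays, 4.99, 5.01 and 5.37 on the CtBP1-labelled arrays and 6.07 and 6.29 on the CtBP2 knockdown arrays, which do not overlap the rest.

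Promoter sequences are shown for BRCA1 and CLSPN, highest on both CtBP2 knockdown arrays, and for FANCL and XRCC4, which were lower there than on all 3 CtBP1-labelled arrays, picked after their values were seen so that their letters can be read side by side. Each is the 250 bases before a RefSeq start on GRCh38.p14, written 5′ to 3′ on the gene's strand. They lie at chr17:43125365-43125614 (minus strand) for BRCA1, chr1:35769979-35770228 (minus strand) for CLSPN, chr2:58241326-58241575 (minus strand) for FANCL and chr5:83077297-83077546 (plus strand) for XRCC4. Capitals mark CCAAT boxes (CCAAT on either strand) and GC boxes (GGGCGG on either strand).
BRCA1: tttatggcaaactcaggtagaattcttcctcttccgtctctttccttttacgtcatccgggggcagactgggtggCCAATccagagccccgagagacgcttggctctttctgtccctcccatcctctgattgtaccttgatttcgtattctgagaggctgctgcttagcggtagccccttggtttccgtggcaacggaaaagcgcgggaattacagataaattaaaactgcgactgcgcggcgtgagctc
CLSPN: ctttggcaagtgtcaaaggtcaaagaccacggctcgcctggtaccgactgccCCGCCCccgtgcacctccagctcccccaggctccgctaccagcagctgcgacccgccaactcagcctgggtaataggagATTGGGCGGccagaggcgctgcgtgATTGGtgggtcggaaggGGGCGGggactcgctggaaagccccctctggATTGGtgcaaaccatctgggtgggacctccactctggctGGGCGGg
FANCL: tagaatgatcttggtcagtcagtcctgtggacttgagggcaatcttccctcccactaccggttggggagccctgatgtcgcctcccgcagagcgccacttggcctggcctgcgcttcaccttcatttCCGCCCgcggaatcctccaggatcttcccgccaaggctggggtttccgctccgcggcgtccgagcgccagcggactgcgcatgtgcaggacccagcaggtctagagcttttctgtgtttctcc
XRCC4: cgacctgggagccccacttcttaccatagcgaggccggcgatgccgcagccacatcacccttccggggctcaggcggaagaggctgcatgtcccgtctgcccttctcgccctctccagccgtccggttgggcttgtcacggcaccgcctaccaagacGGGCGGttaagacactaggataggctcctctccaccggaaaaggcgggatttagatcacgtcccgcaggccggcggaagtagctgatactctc
CLSPN holds 3 CCAAT boxes and 4 GC boxes, of which 1 pair overlaps. BRCA1 holds 1 CCAAT box and no GC box in this window, while its other RefSeq start, not shown, has 1 GC box, and FANCL and XRCC4 hold 1 GC box each.

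RefSeq starts were matched for 44 of the 53 genes, with 67 such windows in all. CCAAT was found in 33 of the 67 (49.3%), against 32.0% of the 35116 windows of all genes, and GGGCGG in 45 (67.2%, against 42.6%). The E2F consensus (TTTCCCGC, TTTGGCGC, TTTCGCGC or TTTGCCGC, either strand) was found in 2 (2.99%, against 2.79%), and the cell cycle element TTTGAA in 7 (10.4%, against 13.3%). On the S phase and replication list an E2F match was found in 10 of 24 windows (41.7%), and on the G2/M list TTTGAA was found in 9 of 19 (47.4%). GC boxes can overlap CCAAT boxes, and a match is a description of the letters only.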

How the data were processed

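For each array and transcript cluster the authors deposited a log2 signal. RMA in Affymetrix Expression Console produced it, per the submitters' processing notes, which name no versions. The genome build used for the arrays is not given in the sources used here. Of 33297 clusters, 19181 carry exactly 1 gene symbol in GEO's platform annotation, 2055 several and 12061 none here. Symbols were updated through Entrez identifiers, and the brightest cluster per gene by mean over 7 arrays was kept, with no filter. A linear model with 3 group means was fitted to all 17958 genes and 7 arrays with limma 3.58.1 in R 4.3.3 (lmFit, default eBayes, 4 residual degrees of freedom), which was tested on simulated data. P-values are two-sided and adjusted by Benjamini-Hochberg over all genes within a comparison, threshold 0.05. Group means within 1e-06 were counted as equal. Values after ± are standard errors from limma. Array data give no depth, so the number of arrays limits the precision. Figures used matplotlib 3.10.9.

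The genes and lists were chosen with earlier results of these data known. Given with values on every array were genes past the threshold, the 8 with the smallest p per comparison, the 3 with the widest range, BRCA1, and each role group's brightest and dimmest gene. Of the further repair genes the 3 with the smallest p per knockdown were named. Protein sequences were not used here. Alternatives were repeated quantile normalization, median centring, leaving out genes with a mean below 3 (8288 genes), the mean of a gene's clusters, a mean-variance trend, array weights, a fit to the compared groups alone, a block for replicate number, and omission of each array in turn.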

Additional observations from a re-analysis of the deposited data

How the results depend on the processing

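Leaving out each array in turn, the genes called for the CtBP1-labelled arrays against scramble numbered 0 to 3262, those among the 53 numbered 0 to 16, those of the 53 with an unadjusted p under 0.05 numbered 0 to 29, and the median difference ran from -0.12 to 0.50. For CtBP2 knockdown against scramble the same values were 0 to 3952, 0 to 20, 3 to 36 and 0.065 to 0.69, with 3 and 4 of the 53 at an unadjusted p under 0.05 without CtBP2 knockdown arrays 1 and 2. In each case the high end is the fit without scramble control 2, which leaves a single control array. Counts of the 53 in this section show only how far each fit moves them. The share of all genes in the same fit is not given beside them, so they show no excess over other genes. Between the knockdowns the 53 held 4 to 17 with an unadjusted p under 0.05, the low end without CtBP2 knockdown array 1.

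With array weights, 1 of the 53 had an unadjusted p under 0.05 for the CtBP1-labelled arrays, 0 genes were called for CtBP2 knockdown, and between the knockdowns 272 genes and 1 of the 53 were called, with 17 of the 53 at an unadjusted p under 0.05. With only the groups compared these counts of the 53 were 1 and 17, and 0 genes were called for CtBP2 knockdown, as with repeated quantile normalization. With the replicate number as a block, 0 genes were called for CtBP2 knockdown and 6 of the 53 had an unadjusted p under 0.05, against 12. Deviations of same-numbered arrays from their group means correlated at -0.354 to 0.0977 across genes. Within the scramble group, and within the CtBP2 knockdown group, these deviations are equal and opposite for each gene. With so few independent values, the correlations cannot decide if replicate numbers pair the arrays. BRCA1 for the CtBP1-labelled arrays turned to -0.050 with repeated quantile normalization and ran from -0.29 to 0.46 without each array. Its sign also turned without scramble control 1 and without CtBP1-labelled array 1. Of the 9, 8 and 8 genes per comparison followed through every alternative (BRCA1 and those with the smallest p), no other changed sign, though FANCF had no value where dim genes were left out. USP1 and MAD2L2 for CtBP2 knockdown against scramble were 0.15 and 0.21 with repeated quantile normalization. Genes outside that choice were followed only without each array, with the block and with the compared groups alone, and many turned sign without scramble control 1, such as PRKDC. The cause of these changes was not tested.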
